A study of Mus musculus with 2 samples.

Results

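Skeletal muscle of the dorsal skin was examined in single-cell RNA-seq of 1 Ctrl library and 1 AD library, and its cells were chosen by the transcripts they hold. A barcode was kept if it had 200 to 6000 genes and no more than 10% of its UMIs from mitochondrial genes, which left 11399 cells in Ctrl and 8179 in AD. A UMI is a molecular tag that lets each captured transcript be counted once. A satellite gate took kept cells with at least 2 UMIs of Pax7, Myf5, Myod1 and Cdh15 together, and a fibre gate took kept cells in which Acta1, Tnnt3, Mylpf and Ckm made up at least 5% of UMIs. Both gates required Pdgfra, a fibroblast gene, and Ptprc, a leukocyte gene, to be at 0. The satellite gate held 51 Ctrl cells and 31 AD cells, or 82 of 19578 kept cells. The fibre gate held 0 cells in both libraries. The values below are therefore those of the satellite gate.

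Both libraries came from female C57BL/6J mice of 7 weeks, whose backs had been depilated 24 hours before the first application. Ctrl mice received 100% ethanol, and AD mice received 4.5 nmol of MC903 (calcipotriol), a vitamin D analogue, in ethanol, once a day for 10 days on an area of 2 cm by 2 cm. Skin was taken on day 10, minced and digested with enzymes, and dead cells were removed. The number of mice behind a library was not given in the sources used here, and each condition had 1 library, so no test was made between conditions and every 95% interval covers counting error only.

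Satellite cells are the stem cells of skeletal muscle. They lie between a muscle fibre and its basement membrane, are marked by the transcription factor Pax7, and after activation express Myod1, divide, and then fuse into fibres under the control of Myog. Mouse skin carries a thin sheet of striated muscle, the panniculus carnosus, below the dermis and the adipose layer. A mature fibre is a large multinucleate cell.

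No kept cell came near the fibre gate. The highest share of Acta1, Tnnt3, Mylpf and Ckm in any deposited barcode was 0.147% of UMIs in Ctrl and 0.117% in AD. With 0 cells of 11399 in Ctrl and 8179 in AD, the share of fibre gate cells could be up to 0.0263% and 0.0367% by the limit of 3 counts of the total, and up to 0.0324% and 0.0451% by the exact Clopper-Pearson interval. Some molecules of the 4 genes were present in kept cells. The 4 genes had 746 UMIs in the kept cells of Ctrl and 242 in AD, and the share of cells with at least 1 of them was 4.51% in Ctrl and 2.78% in AD. Ckm, the muscle creatine kinase, had 240 UMIs in Ctrl and 7 in AD, whereas Tnnt3, a fast troponin, had 214 and 129. Per 1000000 kept UMIs, Ckm stood at 2.28 in Ctrl and 0.114 in AD, and Tnnt3 at 2.03 and 2.09. These molecules were not spread evenly. In Ctrl, 147 of the 240 Ckm UMIs (61.3%) lay in 37 cells of a pericyte or smooth muscle gate of 282 cells, and 158 of the 214 Tnnt3 UMIs (73.8%) lay in the fibroblast gate. The fibroblast gate held 38.7% of kept cells in Ctrl and 51.7% in AD. In AD, 107 of the 129 Tnnt3 UMIs (82.9%) lay in it, and 2 of the 7 Ckm UMIs lay in the pericyte or smooth muscle gate. The cells of the satellite gate held 3 UMIs of the 4 fibre genes in Ctrl and 0 in AD.

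The share of satellite gate cells was 0.447% in Ctrl (95% Clopper-Pearson interval, 0.333 to 0.588) and 0.379% in AD (0.258 to 0.538), and the intervals overlapped. The gate cells held 252372 UMIs in Ctrl and 120173 in AD. Their median depth was 4055 UMIs and 1705 genes in Ctrl and 3540 UMIs and 1584 genes in AD, below the medians of 7813 and 6330 UMIs over all kept cells. Their median mitochondrial share was 3.18% in Ctrl and 1.94% in AD, against 2.96% and 1.54% over all kept cells. The libraries shared 35 barcodes, none of them in the gate. Before the exclusion of Pdgfra and Ptprc, 63 Ctrl and 36 AD cells passed, of which 10 and 3 had a Pdgfra UMI and 2 and 2 a Ptprc UMI.

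The order of the libraries depended on the threshold of the gate. Just inside it, 5 Ctrl cells and 11 AD cells had exactly 2 gate UMIs. Just outside it, 12 Ctrl cells and 25 AD cells had exactly 1. Of these cells with 1 gate UMI, 8 in Ctrl (66.7%) and 14 in AD (56.0%) also had a UMI of Chodl, Erfe or Chrdl2. The share was 12.0% and 1.44% among cells with at least 2 Pdgfra UMIs. These genes were picked from these same data for being far higher in the gate than elsewhere, so the shares are a description only. Chodl was also present in 8.12% of all kept cells in Ctrl and 1.34% in AD. With a threshold of 1 UMI the shares became 0.553% in Ctrl and 0.685% in AD, so AD was then higher. With a threshold of 3 UMIs they were 0.404% and 0.245%.

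**Figure D1:**
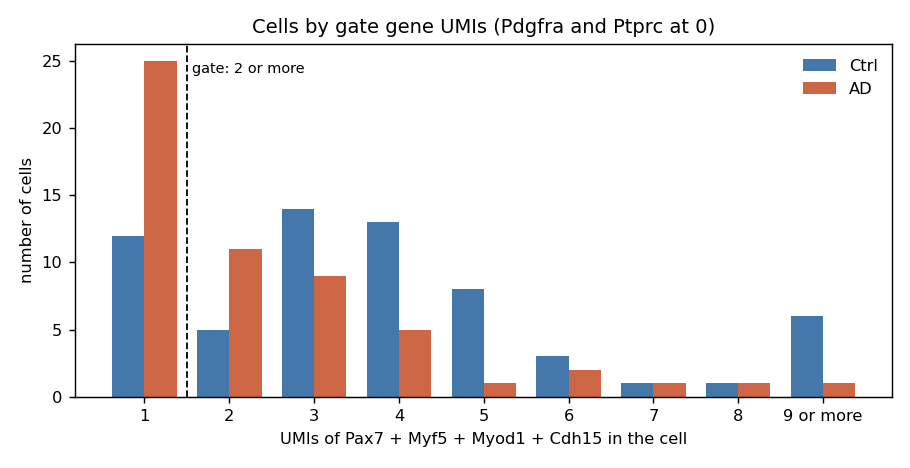
Number of cells (vertical axis) by the UMIs of Pax7, Myf5, Myod1 and Cdh15 in the cell (horizontal axis), with Pdgfra and Ptprc at 0, for Ctrl (blue) and AD (orange). The dashed line is the gate, and 25 AD cells against 12 Ctrl cells lie just below it.

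Pax7, Myf5, Cdh15 and Myod1 chose the cells, so their values are a description and support nothing. Pax7, the transcription factor that defines the lineage, was detected in 49 cells of the 51 from Ctrl and in 23 of the 31 from AD. Its level in the summed UMIs, in counts per 1000000 UMIs (CPM), was 539 (452 to 637) in Ctrl and 416 (309 to 549) in AD. Myf5, a factor of the committed lineage, stood at 190 CPM (30 cells) and 100 CPM (10 cells). Cdh15 encodes M-cadherin, which joins a satellite cell to its fibre, and stood at 182 CPM (28 cells) and 74.9 CPM (7 cells). All 3 genes were lower in AD, by log2 ratios of −0.37 (−0.87 to 0.10) for Pax7, −0.87 (−1.98 to 0.01) for Myf5 and −1.18 (−2.50 to −0.24) for Cdh15. Of the AD cells, 8 reached the threshold only with Myod1. Without Myod1 in the gate, Pax7 stood at 539 and 519 CPM (−0.05) and was found in 96.1% and 91.3% of cells. Another gate, on Chodl, Erfe and Chrdl2, was added after the data had been seen. There the ratios were −0.01 for Pax7, −0.34 for Myf5 and −0.36 for Cdh15, all within 2-fold. Des was found in 37.6% of its Ctrl cells and 62.2% of its AD cells, so ratios in this gate also depend on which cells it holds.

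Myod1, the factor that appears in activated satellite cells, went the other way. Only 9 UMIs of it lay in 5 Ctrl cells, a level of 35.7 CPM (16.3 to 67.7), against 51 UMIs in 14 AD cells, a level of 424 CPM (316 to 558). A single AD cell of 1814 UMIs held 21 of the 51 UMIs and had none of Pax7, Myf5, Cdh15, Chodl or Des. Without the cell with the most Myod1 in each library, the levels were 16.7 CPM in Ctrl and 253 CPM in AD. All 5 Ctrl cells with Myod1 also had Pax7, whereas of the 14 AD cells 7 had Pax7 and 7 did not. In the fibroblast gate, kept cells with at least 2 Pdgfra UMIs and no Ptprc, the share of cells with a Myod1 UMI was 0.0227% in Ctrl and 0.0237% in AD, at median depths of 9625 and 7233 UMIs. With every gate cell thinned to 1000 UMIs in 1 random draw, which left out 0 cells, the shares with Myod1 were 0% in Ctrl and 19.4% in AD, and those with Pax7 45.1% and 22.6%.

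The same order appeared where Myod1 had no part in choosing the cells. A gate on Pax7, Myf5 and Cdh15 alone, added after the data had been seen, held the same 51 Ctrl cells and 23 of the AD cells. Myod1 was found in 5 of the 51 (9.80%, 3.26 to 21.4) and in 6 of the 23 (26.1%, 10.2 to 48.4), at 35.7 and 184 CPM. These intervals overlap. Over all kept cells of a library, Myod1 had 12 UMIs in 8 Ctrl cells and 57 UMIs in 18 AD cells. Of these UMIs, 9 in Ctrl and 51 in AD were those of the satellite gate, so they are mostly the same molecules. Myog, the factor of terminal differentiation, had 0 UMIs in the gate cells of both libraries.

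The gate genes lie on 4 chromosomes in GENCODE M21 on GRCm38. Pax7 (ENSMUSG00000028736) is at chr4:139737062-139833528 and Myf5 (ENSMUSG00000000435) at chr10:107482908-107486134, both on the minus strand. Myod1 (ENSMUSG00000009471) is at chr7:46376474-46379099 and Cdh15 (ENSMUSG00000031962) at chr8:122847966-122867397, both on the plus strand. The deposited gene list holds 1429 of 33904 identifiers that this release lacks, so the authors' annotation was another version.

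**Figure D2:**
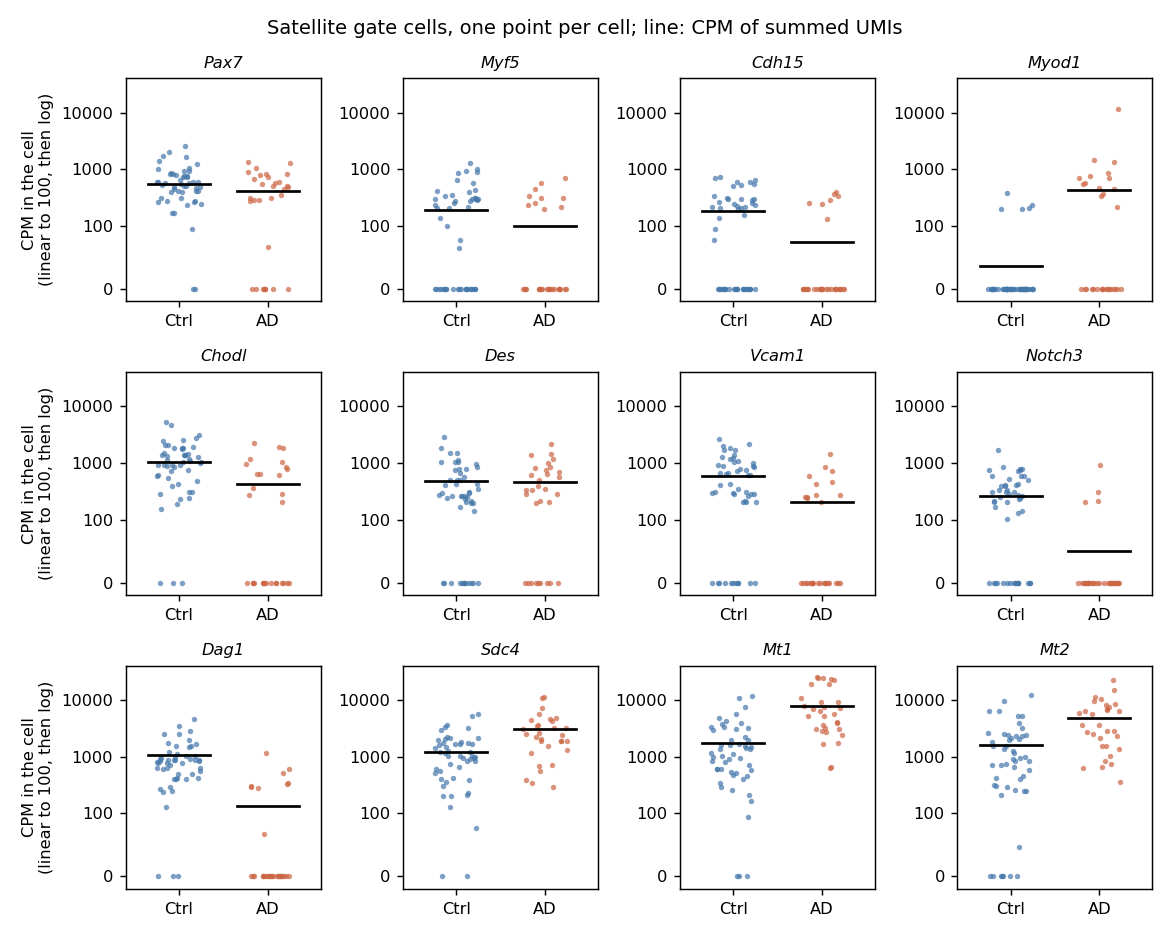
CPM in each satellite gate cell (vertical axis, linear to 100 and logarithmic above) of 12 genes, with 1 point per cell for the 51 Ctrl cells and 31 AD cells and a black line at the CPM of the summed UMIs. Myod1 points off 0 number 5 in Ctrl and 14 in AD, Dag1 points off 0 number 48 and 9, and Mt1 is off 0 in all 31 AD cells.

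Genes outside the rule were also high in these cells. Of 25 further genes known from satellite cells, 16 were at least 2-fold higher in the gate than in all other kept cells of the same library, in both libraries. Of the 18 of them that passed the filter on low values described further on, 14 were so, and the share over all genes that passed was 5.28% (202 of 3829 with a unique symbol). Of the 15 genes with the highest ratio of the gate over the other cells, taken as the lower of the 2 libraries, 13 are given here. They were Erfe, Chodl, Nppc, Chrdl2, Ankrd1, Isl1, Sytl2, Clmn, Des, Heyl, Asb5, Flnc and Fgfr4. Erfe, which encodes the hormone erythroferrone, stood at 448 CPM in the gate against 1.49 CPM elsewhere in Ctrl, and at 366 against 0.931 CPM in AD. Des encodes desmin, the intermediate filament of muscle, and stood at 487 against 32.4 CPM in Ctrl and 466 against 16.6 CPM in AD. Heyl, a target of Notch signalling, stood at 166 against 5.78 CPM and 225 against 3.79 CPM. Nppc, a natriuretic peptide gene, had 28 of its 93 AD UMIs and 32 of its 84 Ctrl UMIs in 1 cell of each library. Isl1, a homeodomain transcription factor, stood at 139 against 0.400 CPM in Ctrl and at 216 against 1.22 CPM in AD.

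**Figure D3:**
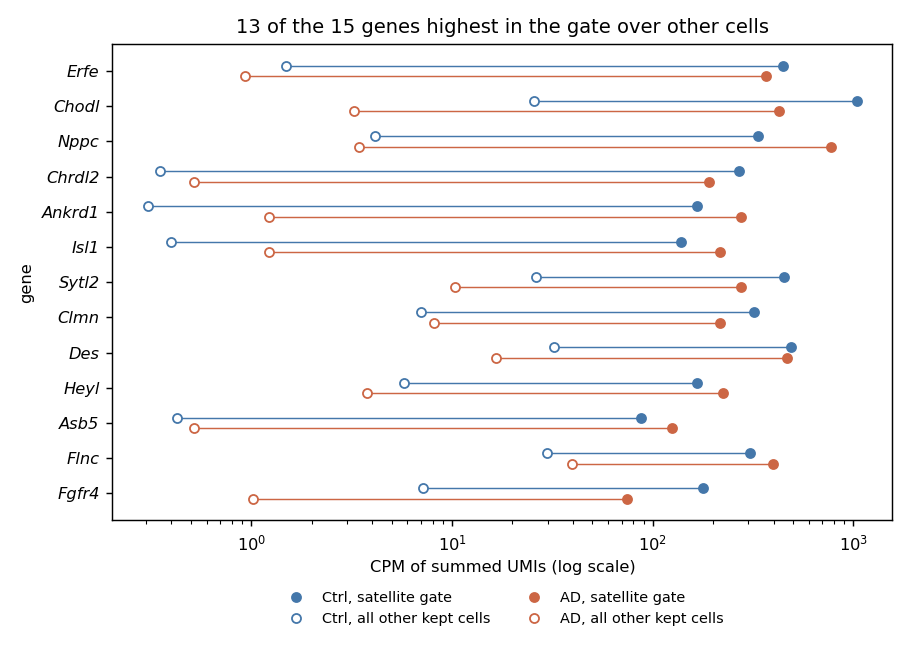
CPM of summed UMIs (horizontal axis, log scale) for 13 of the 15 genes with the highest ratio of the satellite gate (filled points) over all other kept cells (open points), in Ctrl (blue) and AD (orange). Every filled point lies to the right of the open point of the same library, which follows from how the genes were chosen.

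Across the gate, AD and Ctrl were compared on the log2 scale with 10 CPM added, over the 3834 genes that reached 50 CPM in Ctrl or AD and had 10 UMIs or more in the 2 together. Of these, 525 were at least 2-fold higher in AD (13.7%) and 354 were at least 2-fold lower (9.23%), and the median log2 ratio was 0.15. With that median set to 0, 397 were higher and 450 lower. A level of 50 CPM is 12.6 UMIs in the Ctrl gate and 6.01 UMIs in the AD gate, so the ratios of low genes rest on few molecules. Among the 25 satellite cell genes, 18 passed the filter, 2 were higher, 6 were lower and 10 were within 2-fold, with a median of −0.36 against 0.15 over all genes tested.

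The 6 lower genes were Chodl, Vcam1, Fgfr4, Notch3, Calcr and Dag1. Dag1 encodes dystroglycan, which anchors the muscle membrane to laminin, and stood at 1066 CPM in 48 of 51 Ctrl cells and at 133 CPM in 9 of 31 AD cells, a log2 ratio of −2.91. Notch3, a receptor of the Notch pathway, stood at 258 CPM in 35 Ctrl cells and at 49.9 CPM in 4 AD cells (−2.16). Notch3 is also in the list of 5 pericyte or smooth muscle markers, whose other members Acta2 and Tagln were lower in AD too (45 and 34 UMIs in Ctrl, 1 and 0 in AD), while Rgs5 and Myh11 were at 0 in both gates, and their part in the result was not tested. Calcr, the calcitonin receptor of resting satellite cells, had 16 UMIs in 14 Ctrl cells and 1 UMI in 1 AD cell. Most AD cells had no detected molecule of these 3 genes. Most Ctrl cells had one of Dag1 and of Notch3, but not of Calcr. Notch1 and Heyl, of the same pathway as Notch3, were within 2-fold, at 226 and 216 CPM and at 166 and 225 CPM.

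Chodl, which encodes the membrane lectin chondrolectin, stood at 1042 CPM in 48 Ctrl cells and at 424 CPM in 15 AD cells (−1.28). It was also lower in AD in the fibroblast gate, at 36.4 and 3.6 CPM. Vcam1, an adhesion molecule, stood at 582 and 208 CPM (−1.44), and Fgfr4, a receptor for fibroblast growth factors, at 178 and 74.9 CPM (−1.15). After thinning to 1000 UMIs, Chodl was seen in 62.7% of Ctrl and 22.6% of AD cells, Vcam1 in 43.1% and 3.23%, Notch3 in 23.5% and 3.23%, and Dag1 in 54.9% and 6.45%. The order of the libraries was as before thinning. With a gate threshold of 1 UMI, Vcam1 (−0.96) and Fgfr4 (−0.98) were within 2-fold, as was Fgfr4 (−0.97) without Myod1 in the gate. A gate on Chodl, Erfe and Chrdl2 instead was added after the data had been seen. In its cells, 2 of the 6 genes, Notch3 (−1.30) and Dag1 (−1.61), were past 2-fold. The others stood at −0.84 for Chodl, −0.60 for Vcam1, −0.31 for Fgfr4 and −0.95 for Calcr. Chodl chose these cells, so its value there is a description only.

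Sdc4 and Cxcr4 were the 2 higher genes. Sdc4 encodes syndecan-4, a surface proteoglycan of satellite cells, and was present in 49 of 51 Ctrl cells at 1193 CPM and in 31 of 31 AD cells at 3129 CPM. Its log2 ratio was 1.38 (1.17 to 1.61). The ratio was 1.43 in the fibroblast gate and −0.54 in the endothelial gate. Cxcr4, a chemokine receptor, had 5 UMIs in 4 Ctrl cells and 16 UMIs in 10 AD cells. Genes within 2-fold included Des, at −0.06, and Erfe, at −0.28, which are among the genes that set the gate apart from other cells.

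The factors Myod1 and Myf5 bind E-boxes, which were searched in the 300 bases around gene starts (250 before and 50 after). RefSeq windows on GRCm38.p6 were found for 15 of 19 genes looked up, namely the 4 gate genes, the 13 genes above and Mt1 and Mt2. CANNTG, a pattern that is the same on both strands, was found in 9 of the 15 (60.0%; any window, where a gene has several) and in 72.3% of all 32851 windows. Chodl and Cdh15 are shown because they were the 2 genes with 4 or more matches, with 4 each, and 4 or more occur in 6.49% of all windows. Of the matches, 0 overlapped TGCNCNC, the metal motif used for Mt1 and Mt2. The Chodl window is chr16:78930698-78930997 and that of Cdh15 is chr8:122848124-122848423, both on the plus strand, written 5′ to 3′ with the matches in capitals. A match is a description of letters, not a site.
Chodl: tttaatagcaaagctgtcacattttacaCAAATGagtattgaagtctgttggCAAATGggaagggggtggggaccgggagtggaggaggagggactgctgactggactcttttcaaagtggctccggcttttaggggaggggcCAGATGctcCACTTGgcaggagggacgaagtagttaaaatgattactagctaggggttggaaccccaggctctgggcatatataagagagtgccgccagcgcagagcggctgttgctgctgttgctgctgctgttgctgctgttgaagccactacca
Cdh15: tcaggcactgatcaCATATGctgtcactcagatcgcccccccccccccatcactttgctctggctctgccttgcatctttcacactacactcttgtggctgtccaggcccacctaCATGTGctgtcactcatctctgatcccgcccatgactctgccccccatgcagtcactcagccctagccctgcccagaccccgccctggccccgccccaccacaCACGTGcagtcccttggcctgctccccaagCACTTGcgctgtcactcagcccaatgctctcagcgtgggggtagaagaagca

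Genes of commitment and of the sarcomere were mostly absent. Of 16 commitment genes, 5 passed, 1 was higher, 0 were lower, and the median was −0.01. Among all genes tested, 13.7% were higher and 9.23% lower. Cdkn1c, an inhibitor of the cell cycle, was the higher one, at 31.7 and 99.9 CPM on 8 and 12 UMIs (1.40), but at 0.84 without Myod1 in the gate and 0.75 in the gate on Chodl, Erfe and Chrdl2. Cdkn1a, another such inhibitor, stood at 313 and 616 CPM (0.95). The fusion genes Mymk and Mymx had 0 UMIs in both libraries. Of 12 genes of the fast sarcomere 1 passed, of 11 of the slow sarcomere 3 passed, and of 17 common sarcomere genes 1 passed, which was Des. Mybpc1, a myosin binding protein, was the single gene past 2-fold among them, lower at 15 and 2 UMIs (−1.38, and −0.89 in the gate on Chodl, Erfe and Chrdl2). Of the 13 fibre energy genes found, 2 passed, Gapdh and Ldha, both within 2-fold.

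Metallothioneins stood out among 15 genes known from denervated or wasting muscle. Of these, 9 passed, 4 were higher, 0 were lower and the median was 0.86. Over all genes tested, 13.7% were higher, 9.23% were lower and the median was 0.15. Mt1, a metallothionein that binds zinc, was present in 48 cells of the 51 in Ctrl and in all 31 in AD. Its level was 1763 CPM (1603 to 1935) in Ctrl and 7922 CPM (7427 to 8442) in AD, with a log2 ratio of 2.16. Mt2 stood at 1581 and 4910 CPM (1.63). Both were higher in AD in the fibroblast gate as well, by 3.06 and 2.31 on the log2 scale, and in the endothelial gate by 1.73 and 1.29, but in the T cell gate Mt1 stood at 462 and 468 CPM. Whether the satellite gate differs from those gates was not tested.

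Mt1 and Mt2 lie close together on chromosome 8 and were higher together. Metal ions induce them through metal response elements, so their windows are shown for a loose form of that element's core. The pattern TGCNCNC takes any base at its first N, where the core has A or G. It was searched on both strands and occurs at least once in 51.0% of all windows, at least 3 times in 7.10% and at least 6 times in 0.225%. The window of Mt1 (chr8:94178839-94179138, plus strand) has 3 matches and that of Mt2 (chr8:94172368-94172667, plus strand) has 6, in capitals below, and 0 of them overlap an E-box.
Mt1: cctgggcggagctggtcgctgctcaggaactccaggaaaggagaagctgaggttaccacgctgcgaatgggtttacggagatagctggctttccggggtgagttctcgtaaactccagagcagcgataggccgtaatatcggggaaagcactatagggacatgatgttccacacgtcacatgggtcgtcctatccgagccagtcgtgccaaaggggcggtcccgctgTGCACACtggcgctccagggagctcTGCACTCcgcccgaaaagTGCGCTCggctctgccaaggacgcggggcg
Mt2: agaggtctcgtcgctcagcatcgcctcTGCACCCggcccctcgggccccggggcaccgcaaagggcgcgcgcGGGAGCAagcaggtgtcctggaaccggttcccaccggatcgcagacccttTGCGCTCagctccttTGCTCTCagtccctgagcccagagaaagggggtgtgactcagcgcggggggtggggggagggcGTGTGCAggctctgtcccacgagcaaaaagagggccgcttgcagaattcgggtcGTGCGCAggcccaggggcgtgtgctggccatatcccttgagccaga

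Runx1 and Ctsl completed the higher genes of that list. Runx1, a transcription factor, stood at 487 CPM in 43 Ctrl cells and 1198 CPM in 29 AD cells (1.28, 0.94 to 1.66). Its log2 ratio was 0.63 in the fibroblast gate and −0.36 in the endothelial gate. Ctsl, the lysosomal protease cathepsin L, stood at 234 and 865 CPM (1.84), with 1.47 in the fibroblast gate. The ubiquitin ligase genes were low, with Trim63 at 0 UMIs in both libraries and Fbxo32 at 16 and 5 UMIs.

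Chemokine genes were uneven between cells. Ccl2, a ligand of the receptor Ccr2, had 8 UMIs in 6 Ctrl cells, or 31.7 CPM, and 74 UMIs in 13 AD cells, or 616 CPM (3.91), but 2 AD cells held 70.3% of the 74 UMIs, with 29 and 23. All other kept cells had 291 and 1270 CPM, so the gate was below its surroundings in both libraries. Of 16 chemokine and cytokine genes, 7 passed, 3 were higher (Ccl2, Cxcl14 and Csf1), 1 was lower (Cxcl2) and the median was 0.56. The shares over all genes tested were 13.7% higher and 9.23% lower. All 12 AD UMIs of Cxcl14 came from 1 cell, and its log2 ratio of 2.33 turned to −0.60 without the deep or mixed cells described near the end. Csf1 rested on 7 and 8 UMIs, and its ratio of 1.02 turned to −0.86 without Myod1 in the gate. In the gate on Chodl, Erfe and Chrdl2, Ccl2 alone of the 4 was past 2-fold, at 3.09.

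Receptors and signal carriers of cytokines were present at low counts. Of 23 genes of cytokine signalling, 14 passed, 3 were higher (Lifr, Ifngr1 and Stat6), 0 were lower and the median was 0.73. For this list and those below, the shares over all genes tested were 13.7% higher and 9.23% lower. Lifr, a receptor of the LIF family, stood at 63.4 and 166 CPM (1.27). With the mean of each cell's CPM in place of the sum, Ifngr1 (0.88) and Stat6 (0.99) were within 2-fold, and in the gate on Chodl, Erfe and Chrdl2 so were Lifr (0.72) and Ifngr1 (0.54). Ifngr1 was also within 2-fold without the deep or mixed cells (0.89). Stat3, which carries signals of that family, stood at 372 CPM in 40 Ctrl cells and 691 CPM in 26 AD cells (0.87), and Socs3, an inhibitor that Stat3 induces, at 907 and 1523 CPM (0.74). Il4ra, a receptor chain for IL-4 and IL-13, had 10 UMIs in each library, and Stat6, which acts below it, had 4 and 7. Interferon and MHC genes gave 5 that passed of 15, with 0 higher, 1 lower (Bst2, 13 and 1 UMIs) and a median of −0.21. Of 4 genes of the vitamin D response, 1 passed, with 1 higher, 0 lower and a median of 1.02. This was Vdr, the vitamin D receptor, at 7 and 8 UMIs, and its ratio turned to −0.20 at a gate threshold of 1 UMI and was 0.25 in the gate on Chodl, Erfe and Chrdl2. Cyp24a1, the enzyme that breaks down vitamin D, had 0 and 2 UMIs.

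All 15 immediate early and heat shock genes passed, 0 were higher, 3 were lower and the median was −0.25. Among all genes tested, 13.7% were higher and 9.23% lower. Egr1, a transcription factor induced within minutes, stood at 5753 CPM over 50 Ctrl cells and at 2288 CPM over 26 AD cells (−1.33). Its log2 ratio was 0.43 in the fibroblast gate and −1.31 in the endothelial gate. Jun stood at 3332 and 1514 CPM (−1.13), whereas Fos, its partner in the AP-1 factor, stood at 4291 and 3844 CPM (−0.16), with 196 of its 462 AD UMIs in 1 cell and a ratio of −0.60 without the highest cell of each library, and Junb at 2484 and 4236 CPM (0.77). In the gate on Chodl, Erfe and Chrdl2, Egr1 (−0.49) and Jun (−0.62) were within 2-fold, as was Jun (−0.62) at a threshold of 1 UMI and Dnajb1 (−0.94) without Myod1 in the gate. Handling of the tissue was not measured, and with 1 library each it cannot be told apart from the condition.

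Cell cycle genes differed among themselves. Of 12 genes, 5 passed, 0 were higher, 3 were lower and the median was −2.15. The shares over all genes tested were 13.7% higher and 9.23% lower. Pcna, a clamp of DNA replication, was within 2-fold, with 51 UMIs in 18 Ctrl cells and 26 UMIs in 19 AD cells. Mki67 had 17 UMIs in 4 Ctrl cells and 0 in AD, Top2a had 18 in 3 Ctrl cells and 1 in AD, and Ccnd1, cyclin D1, had 29 in 14 Ctrl cells and 0 in AD, which is at least 4.60-fold lower against a floor of 3 counts over the gate. A UMI of Mki67 or Top2a was present in 5 of 51 Ctrl cells (9.80%, 3.26 to 21.4) and 1 of 31 AD cells (3.23%, 0.0816 to 16.7). Without the deep or mixed cells, the log2 ratio of Mki67 went from −2.95 to −0.60 and that of Top2a turned from −2.15 to 0.36, so 2 of the 3 lower genes rested on those cells, while Ccnd1 stood at −2.95.

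**Figure D4:**
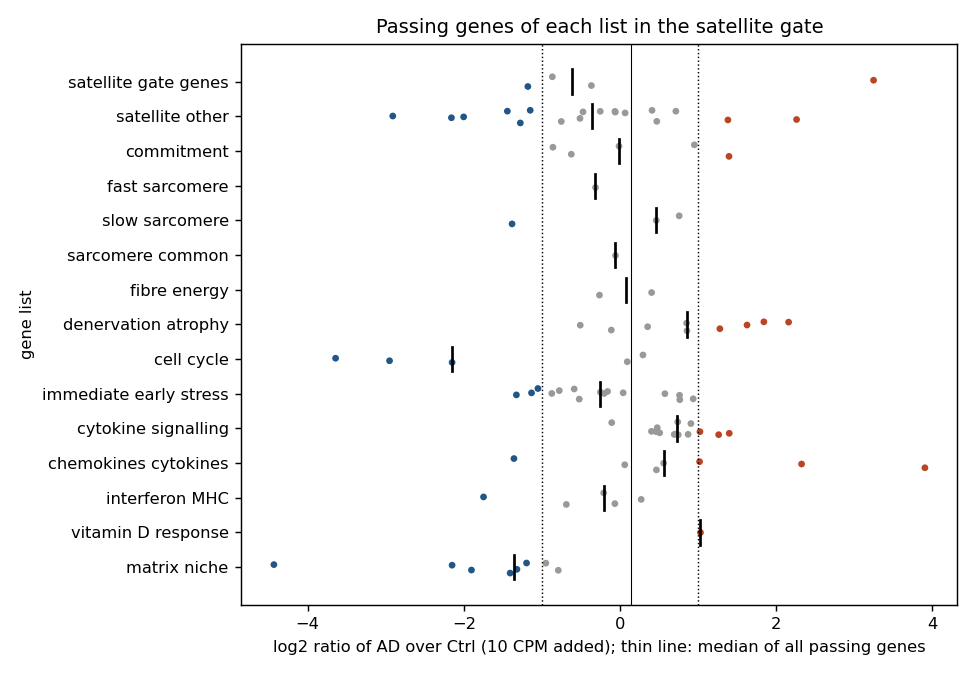
Log2 ratio of AD over Ctrl with 10 CPM added (horizontal axis) for each passing gene of each list (vertical axis), with a black bar at the list's median, dotted lines at 2-fold and a thin line at 0.15, the median of all passing genes. Red points are at least 2-fold higher in AD and blue points at least 2-fold lower, and 6 of 8 points of the matrix list are blue.

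Most passing matrix genes were lower in AD. Of 17 genes of the fibre's surroundings, 8 passed, 0 were higher, 6 were lower and the median was −1.36. Over all genes tested, 13.7% were higher and 9.23% lower. Lama2, a laminin of the muscle basement membrane, stood at 214 CPM in 24 Ctrl cells and 49.9 CPM in 6 AD cells (−1.90). Col15a1, a collagen near basement membranes, had 52 UMIs in 28 Ctrl cells and 0 in AD, at least 8.25-fold lower. Sparc, a collagen binding protein, stood at 638 and 250 CPM (−1.32). Col4a2 (−1.41) was within 2-fold with the mean of each cell's CPM (−0.97) and in the gate on Chodl, Erfe and Chrdl2 (−0.76). Lama2 was near 0 in the fibroblast gate on this scale, at −0.23, while Col15a1 stood there at −4.66 and Sparc at −2.93.

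Of 7 fibroblast markers, 5 passed, 0 were higher, 4 were lower (Col1a1, Col1a2, Col3a1 and Dpt) and Dcn was within 2-fold. Over all genes tested, 13.7% were higher and 9.23% lower. The 7 markers summed to 1478 CPM in the Ctrl gate and 341 CPM in the AD gate, led by Col3a1 in Ctrl and Dcn in AD, and to 28899 and 8174 CPM in the other kept cells. Pdgfra was at 0 by the rule, and Col1a1, Col1a2 and Lum were also at 0 in AD. Col3a1 had 116 UMIs in 42 Ctrl cells and 1 UMI in AD, or 460 and 8.32 CPM. Dcn, the proteoglycan decorin, had 58 UMIs in 24 Ctrl cells and 33 UMIs in 14 AD cells, or 230 and 275 CPM (0.25, and 0.75 without the highest cell of each library). Col1a1 and Col1a2, the chains of collagen I, had 42 and 51 UMIs in Ctrl and 0 in AD. In the T cell gate, Col3a1 stood at 339 and 4.78 CPM, below the satellite gate in both libraries, and Col1a1 stood at 403 and 10.4 CPM, above the satellite gate, which had 166 CPM in Ctrl and 0 in AD. The part of free RNA in these levels was not tested.

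The highest and lowest 15 genes of the gate, among those with at least 100 CPM, 30 UMIs and detection in 20% of cells, began at the low end with Col3a1, C1qtnf3, Col15a1, Col1a2 and Col1a1. C1qtnf3, a secreted protein of the C1q and TNF family, had 61 UMIs in 19 Ctrl cells and 0 in AD, at least 9.68-fold lower, and its log2 ratio was −1.25 in the fibroblast gate and −0.07 in the endothelial gate. Cavin2, a coat protein of caveolae, stood at 559 CPM in 38 Ctrl cells and 33.3 CPM in 4 AD cells (−3.72), against 0.03 in the fibroblast gate and −1.58 in the endothelial gate. Lgals1, galectin-1, stood at 721 and 74.9 CPM, and H19, an imprinted noncoding RNA, at 147 and 16.6 CPM. The contractile genes Acta2 and Tagln had 45 and 34 UMIs in Ctrl and 1 and 0 in AD, and 1 Ctrl cell held 23 of the 45. Park7, Dag1, Timp3 and Ucp2 were also among them. Timp3, an inhibitor of metalloproteinases, had 39 of its 73 Ctrl UMIs in 1 cell, and its log2 ratio went from −2.79 to −1.49 without the deep or mixed cells and to −0.70 at a threshold of 1 UMI. In the gate on Chodl, Erfe and Chrdl2, Timp3 (−0.49), Acta2 (−0.93) and Ucp2 (−0.87) were within 2-fold.

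At the high end, Galnt15, an enzyme that begins the glycosylation of mucin-type proteins, had 0 UMIs in Ctrl and 39 in AD, spread over 20 of the 31 cells, at least 27.3-fold higher against the floor of 3 counts over the gate. Its level in the fibroblast gate was 104 and 1034 CPM, and it was found in 37.9% of Ctrl and 92.7% of AD cells there. In the T cell gate 1.65% and 6.50% of cells had it, at median depths of 3236 and 5920.5 UMIs, against 64.5% of the AD satellite gate. Insr, the insulin receptor, had 4 UMIs in Ctrl and 27 in AD, the latter in 17 cells (3.18), against 1.43 in the fibroblast gate. Emp1, a membrane protein, stood at 170 and 932 CPM (2.38), and Plaur, the urokinase receptor, at 47.5 and 266 CPM (2.26). The rest were Myod1, Ccl2, Mgst1, Rhoq, Slc6a6, Gm13889, Gm20186 and 4 identifiers without a gene name in the files. In 1 AD cell Slc6a6, a taurine transporter, had 47 of its 83 UMIs, and without the deep or mixed cells its log2 ratio went from 2.36 to 1.18. Mgst1 was at 2.49, and at 0.87 in the gate on Chodl, Erfe and Chrdl2.

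**Figure D5:**
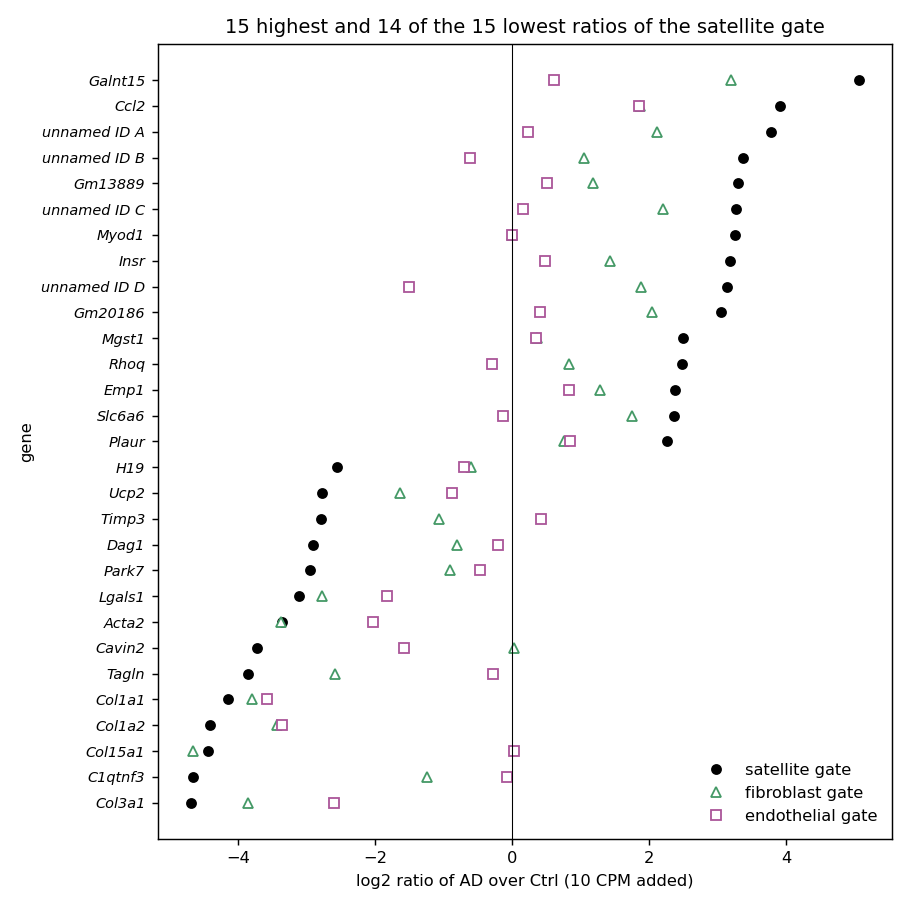
Log2 ratio of AD over Ctrl with 10 CPM added (horizontal axis) for the 15 highest and 14 of the 15 lowest genes of the satellite gate (vertical axis), in the satellite gate (black circles), the fibroblast gate (green triangles) and the endothelial gate (purple squares); 4 identifiers without a name are lettered. Of the 15 highest genes, 11 were also at least 2-fold higher in the fibroblast gate, 1 in the endothelial gate and 8 in the keratinocyte gate, not drawn. Of the 15 lowest, 11, 7 and 8 were at least 2-fold lower there. The share of all genes past 2-fold in those gates was not worked out.

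Among the 15 highest genes the median log2 ratio was 3.18 in the satellite gate, 1.43 in the fibroblast gate and 0.35 in the endothelial gate. Among the 15 lowest genes it was −3.72, −1.63 and −0.87. In the keratinocyte gate, the medians were 1.03 and −1.61, with 8 of 15 genes at least 2-fold higher and 8 of 15 at least 2-fold lower. In the pericyte or smooth muscle gate they were 0.33 and −0.67, with 4 and 5 genes. In the T cell gate they were 0.05 and −0.95, with 1 and 6 genes. These genes were chosen for their ratio in the satellite gate, so these values are a description, and the gates share their libraries. The share of all genes past 2-fold in each of the other gates was not worked out, so these counts have no background. The fibroblast gate held 4415 Ctrl and 4225 AD cells, and the endothelial gate held 331 and 317.

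Markers of other types were spread over many gate cells for some lists and lay in single cells for others. The fibroblast markers had 373 UMIs over 50 cells of the 51 from Ctrl, and 41 UMIs over 18 of the 31 from AD. The 5 pericyte or smooth muscle markers, which include Notch3, had 144 UMIs in 45 Ctrl cells, with 26 in the highest cell, and 7 UMIs in 5 AD cells. In Ctrl, 4 cells had over 9000 UMIs and held 23.6% of all gate UMIs, and 1 AD cell held 12.5%. All 69 UMIs of the 5 endothelial markers in Ctrl came from 1 of these cells, and AD had 0. The 7 keratinocyte markers had 110 UMIs in 24 Ctrl cells, of which 50 and 27 lay in 2 cells, and 92 in 4 AD cells, of which 89 lay in 1 cell, or 436 and 766 CPM. The most abundant keratinocyte gene in AD was Krt14, with all 40 UMIs in 1 cell. The erythroid list had 158 and 3 UMIs, with 149 of them in 1 Ctrl cell, led by Hbb-bs. The macrophage list had 15 and 3 UMIs, T cell markers 0 and 1, Schwann markers 7 and 1, mast cell markers 1 and 0, and adipocyte markers 0 and 0.

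Without the 4 Ctrl and 1 AD deep or mixed cells, Pax7 stood at 628 and 466 CPM, Myod1 at 20.8 and 485 CPM, Dag1 at 1079 and 143 CPM and Notch3 at 306 and 57.0 CPM. The order of the libraries was as before for each. The log2 ratio of Sdc4 was 1.11, that of Runx1 1.04 and that of Mt1 1.85. Of the 73 named genes past 2-fold, 64 were past it in the same direction without these cells.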

How the data were processed

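Per the study's methods, skin suspensions were sequenced with the 10x 3′ kit and counted with Cell Ranger. The authors deposited 1 matrix of UMI counts per gene and barcode for each library, unfiltered by the stated limits on genes and mitochondrial share, with 125184653 UMIs in 12598 Ctrl barcodes and 76106062 UMIs in 8778 AD barcodes. The matrix header names Cell Ranger 5.0.0, the submitters' processing notes name 3.1.0, and the study's methods name a later version than both. Sources also differ on the collagenase. The stated limits were applied here, and 105195951 and 61645227 UMIs remained. UMIs were summed over gate cells and scaled to CPM of all gate UMIs. Ratios are log2 with 10 CPM added. Intervals (95%) are exact Poisson for levels, Clopper-Pearson for shares and conditional binomial for ratios without the added CPM, for counting error only. Python 3.11.15, numpy 2.4.6, scipy 1.17.1, pandas 2.3.3 and scanpy 1.11.5 were used. The calculation was tried on simulated Poisson counts, with changed genes drawn from higher levels only. That trial does not cover changes in low genes or counts bunched in single cells.

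The members, gene lists and rules were chosen with earlier results of these data known. Named genes are all list genes, the 15 highest and 15 lowest ratios (at least 100 CPM in either library, 30 UMIs and 20% of cells) and the 15 highest of the gate over other cells. Reference gates were chosen after the data had been seen. They took kept cells outside the satellite gate, the fibroblast gate with at least 2 Pdgfra UMIs and no Ptprc, the keratinocyte gate with at least 10 UMIs of Krt5 and Krt14, the endothelial gate with at least 3 UMIs of Pecam1 and Cdh5, the pericyte or smooth muscle gate with at least 3 UMIs of Rgs5 and Myh11, and the T cell gate with Ptprc and at least 2 UMIs of the Cd3 genes. Scrublet, at an expected rate of 6%, marked 3.47% of Ctrl cells and 0% of AD cells. Why it marked none in AD was not tested, and doublets were kept in both libraries. Of the genes that this rule takes, 3 are not reported here. Symbols found more than once in the gene list, Aldoa among them, were not used.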

Additional observations from a re-analysis of the deposited data

How the results depend on the processing

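The share of satellite gate cells in Ctrl lay within its interval under 8 of 10 alternatives that changed the cells or their total, and that in AD under 7 of 11. With cells thinned to 1000 UMIs the shares were 0.145% and 0.0911%, and with at least 3 gate UMIs the AD share was 0.245%. At a threshold of 1 UMI, chosen after seeing the data, the AD share was 0.685%. A gate on Chodl, Erfe and Chrdl2, also chosen after seeing the data, gave 1.10% and 0.550%. The fibre gate was also empty over all deposited barcodes, without the exclusion of Pdgfra and Ptprc and at 2% of UMIs. Leaving out called doublets gave no AD value, as the caller marked 0 cells there, and the comparison of genes in fibres was not run, as no cell passed.

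The counts of genes past 2-fold were within 1.5 times of 525 and 354 under 12 and 13 of 15 alternatives, and 3 more left the gate cells as they were. They were 109 and 66 with at least 200 CPM, and 1097 and 1599 without a filter. More genes were higher than lower in the value as reported, and this balance turned under 4 alternatives, with 267 higher and 280 lower on thinned gates, 473 and 531 in the gate on Chodl, Erfe and Chrdl2, 397 and 450 with the median ratio set to 0, and without a filter as above. Of 73 named genes past 2-fold, 62 were past it the same way at a threshold of 1 UMI. The number was 69 without Myod1 in the gate, 64 without deep or mixed cells and 66 with the mean of each cell's CPM. It was 50 in the gate on Chodl, Erfe and Chrdl2. All 73 stayed when the CPM added to each level was lowered to 1, but a smaller added value can only move a ratio away from 0. That setting could therefore not lower the number.

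Some log2 ratios turned. At a threshold of 1 UMI, Vdr was −0.20 and Dsp −0.70, and without Myod1 in the gate Csf1 was −0.86. Without deep or mixed cells, Top2a was 0.36, Cxcl14 −0.60, Krt14 −1.85 and Dsp −0.39. In the gate on Chodl, Erfe and Chrdl2, Pecam1 was 0.38 and Cldn5 0.70. The cause was not tested. No paired analysis was possible because each group has 1 library. With 51 and 31 cells and 1 library per condition, the data cannot separate the condition from the library or the mice.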

Other observations

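Cells were also found without any gate gene, by at least 2 UMIs of Chodl, Erfe and Chrdl2 together, a choice made after the values had been seen. With Pdgfra and Ptprc at 0, 125 Ctrl cells and 45 AD cells passed, of which 49 and 22 were in the satellite gate. In the AD cells, Pax7 was found in 51.1% and Des in 62.2%. In the Ctrl cells, Pax7 was found in 41.6% and Des in 37.6%. Myod1 was found in 5 of the 125 Ctrl cells (4.0%, 1.31 to 9.09) and in 10 of the 45 AD cells (22.2%, 11.2 to 37.1), at 13.5 and 118 CPM. Chodl was also found in 11.4% of cells in the Ctrl fibroblast gate and 1.37% in that of AD.

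Neb, which encodes the giant filament protein nebulin, had 477 UMIs in 268 Ctrl cells and 757 UMIs in 312 AD cells over all kept cells, with 5 and 1 UMIs in the satellite gate. Its level over all kept cells was 4.53 CPM in Ctrl and 12.3 CPM in AD, while Ckm stood at 2.28 and 0.114 CPM and Tnni2, a fast troponin, at 2.78 and 0.292 CPM. Which cells hold the Neb molecules was not tested.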
